A study of Mus musculus with 7 samples.

Results

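Microglia are the resident macrophages of the brain, and homeostatic microglia are those that keep the gene programme of the undisturbed tissue. They were sought here in single cells of 7 mouse brain tumour libraries, and the cells were chosen by a gate on counted transcripts. A cell entered when it held at least 1 unique molecular identifier (UMI, 1 counted transcript molecule) of the complement genes C1qa, C1qb and C1qc together, at least 1 UMI in 2 or more of the 5 genes P2ry12, Tmem119, Sall1, Olfml3 and Siglech, and no UMI of Cd3d, Cd3e or Cd3g. The gate took 2492 of 23938 kept cells. It used the measured counts, so the levels of these 11 genes in the gated cells are a description and not a finding. Of the gated cells, 1281 came from SHH replicate 1, 983 from MYC replicate 5 and 201 from SHH replicate 2. The other 4 libraries together held 27, with 6 in MYC replicate 1, 1 in MYC replicate 2, 11 in MYC replicate 3 and 9 in MYC replicate 4.

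Microglia settle in the brain from yolk sac progenitors before birth and renew themselves there, and their survival rests on signalling through the receptor Csf1r. Transforming growth factor beta and the transcription factor Sall1 maintain their identity, which shows in the purinergic receptor P2ry12 that senses nucleotides from injured cells, the surface protein Tmem119, the lectin Siglech and the secreted matrix protein Olfml3. In disease microglia lower this set and raise lipid handling and phagocytic genes such as Apoe, Lpl, Cst7 and Spp1. Macrophages that come from blood monocytes also make C1q once in the tissue, and they tend to express Ms4a7 and the class II antigen presentation genes.

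All animals were Rosa26-creERT2::Smarcb1 fl/fl mice whose mothers received tamoxifen at 50 mg/kg on day 6.5 of gestation, which models the rhabdoid tumour ATRT. The Cre is expressed in all cell types, so Smarcb1, a core member of the SWI/SNF chromatin remodeller, can also be lost in the host's own cells, and every group shares this genotype and treatment. Tumours were dissociated with an enzyme and sorted for viability, and no library from brain without a tumour was analysed here. The MYC subgroup held 5 libraries of 4 animals: replicate 1 from the basal cerebrum at 12 weeks, replicates 2 and 3 from the trigeminal nerve and the lateral cerebellum of 1 animal at 19 weeks, replicate 4 from the trigeminal nerve at 21 weeks and replicate 5 from the basal cerebrum at 27 weeks. The SHH subgroup held 2 libraries of 2 animals, both from the striatum and subventricular zone, at 14 and 16 weeks. Subgroup and tumour site do not overlap, so they cannot be told apart. Smarcb1 stood at 32.7, 46.1 and 32.6 UMIs per 1000000 counted (CPM) in the gated cells of MYC replicate 5, SHH replicate 1 and SHH replicate 2, and whether the counted 3′ ends lie in the deleted part was not tested.

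Kept cells per library ranged from 183 to 15253. The gated cells had a median of 5594 UMIs in MYC replicate 5, 3267 in SHH replicate 1 and 3100 in SHH replicate 2, for sums of 6908102, 4251028 and 674782 UMIs. The smaller sums, 1927 to 90199 UMIs, give wide intervals. MYC replicate 5 and SHH replicate 1 were sequenced in 2 runs. Only 4 cell barcodes of gated cells were shared between libraries. All intervals given for counts and shares are 95% intervals and cover counting error only.

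The regulatory sequence at 3 of the gate genes is shown because these genes carry the choice of cells. The windows run from 250 bases before to 50 after the RefSeq start on GRCm38.p6, 5′ to 3′ on the gene's strand. Capitals mark matches on either strand to AGGAAG or GAGGAA, which hold the GGAA core bound by ETS factors such as PU.1 (Spi1), the master regulator of myeloid cells. The P2ry12 window is chr3:59262936-59263235 on the minus strand, the Siglech window chr7:55767934-55768233 on the plus strand and the Olfml3 window chr3:103737952-103738251 on the minus strand.
P2ry12: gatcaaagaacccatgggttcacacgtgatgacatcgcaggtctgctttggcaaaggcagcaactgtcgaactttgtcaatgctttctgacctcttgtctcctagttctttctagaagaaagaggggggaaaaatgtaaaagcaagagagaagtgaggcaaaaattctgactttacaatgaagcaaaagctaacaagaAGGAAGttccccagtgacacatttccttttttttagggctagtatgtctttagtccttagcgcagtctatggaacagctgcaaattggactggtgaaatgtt
Siglech: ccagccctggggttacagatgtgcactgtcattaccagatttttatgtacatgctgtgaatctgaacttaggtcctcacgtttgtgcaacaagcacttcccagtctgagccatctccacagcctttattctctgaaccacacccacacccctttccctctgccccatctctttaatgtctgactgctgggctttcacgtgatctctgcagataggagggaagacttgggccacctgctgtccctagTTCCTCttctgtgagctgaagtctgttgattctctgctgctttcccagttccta
Olfml3: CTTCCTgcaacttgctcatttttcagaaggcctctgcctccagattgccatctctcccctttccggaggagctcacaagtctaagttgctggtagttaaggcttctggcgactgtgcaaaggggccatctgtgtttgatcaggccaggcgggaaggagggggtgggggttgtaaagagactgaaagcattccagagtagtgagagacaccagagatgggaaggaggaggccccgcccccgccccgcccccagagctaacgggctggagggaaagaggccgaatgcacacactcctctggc
The P2ry12 and Olfml3 windows each held 1 match to AGGAAG, and the Siglech window held 1 match to GAGGAA. Of 32851 promoter windows of the same length, 35.4% held AGGAAG, 28.3% held GAGGAA and 46.0% held either, so a match is common. Spi1 was at 229 CPM in the gated cells of MYC replicate 5, 349 in SHH replicate 1 and 439 in SHH replicate 2. Sall1 has 3 entries in the promoter table, which are not printed, and Tmem119 (chromosome 5, 113793729 to 113800516, a protein-coding gene in GENCODE M21) completes the set.

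The first question was how large a share of the tumour cells passed the gate. It was 34.3% (Wilson 32.8 to 35.9%) of kept cells in SHH replicate 1 and 11.8% (10.3 to 13.4%) in SHH replicate 2. In the MYC subgroup it was 6.44% (6.07 to 6.85%) in replicate 5, 1.91% in the animal of replicates 2 and 3, 1.73% in replicate 1 and 0.396% in replicate 4. Every MYC animal stood below both SHH animals, with means of 2.62% ± 2.64 (SD, n = 4) and 23.04% ± 15.9 (SD, n = 2). The difference of 20.4 percentage points gave p = 0.0667 in an exact two-sided permutation test, the smallest p that 15 splits of 6 animals allow, so the design cannot pass 0.05.

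Among the cells with C1q and no Cd3 UMI, the gated cells were 53.9% in SHH replicate 1 and 35.1% in SHH replicate 2. The share was 13.48% in the animal of MYC replicates 2 and 3, 11.3% in MYC replicate 5, 5.66% in MYC replicate 1 and 3.56% in MYC replicate 4. The means were 8.503% ± 4.66 (SD, n = 4) and 44.5% ± 13.3 (SD, n = 2), again without overlap (exact two-sided permutation p = 0.0667, and 0.0667 after Benjamini-Hochberg adjustment over both shares). The difference in makeup was therefore also present within the C1q cells. When 1 gate gene sufficed the groups overlapped for both shares, with p = 0.133 of kept cells and p = 0.2 of C1q cells in the same exact permutation test.

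**Figure D1:**
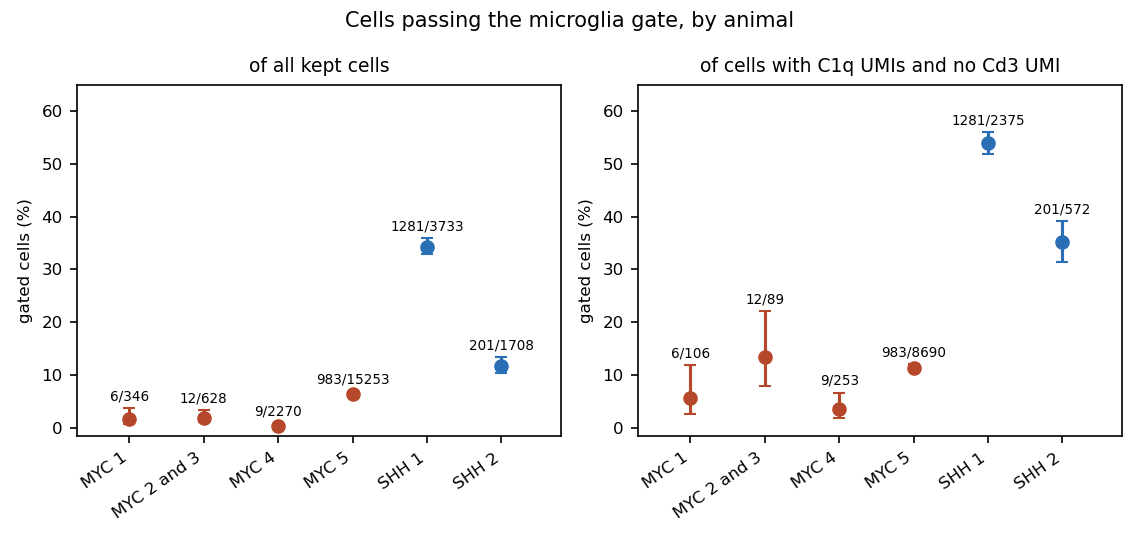
Share of cells passing the microglia gate, in percent, for each of 6 animals, of all kept cells (left) and of cells with C1q and without Cd3 UMIs (right). Points are animals with their cell numbers, bars are Wilson 95% intervals, and both SHH animals (34.3% and 11.8%, 53.9% and 35.1%) stand above every MYC animal.

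The genes through which cells passed the gate differed between libraries. In MYC replicate 5, 700 of 983 gated cells (71.2%, Wilson 68.3 to 74.0%) passed on Tmem119 and Olfml3 alone, against 12.3% in SHH replicate 1 and 15.9% in SHH replicate 2. P2ry12, Siglech or Sall1 was seen in 28.8% of the gated cells of MYC replicate 5, and in 87.7% and 84.1% of those of SHH replicates 1 and 2. Siglech was in 6.002%, 70.6% and 48.8%, and Sall1 in 0.305%, 13.1% and 2.49%, in the same order. Ms4a7, which the gate did not ask for, was in 88.9% of the gated cells of MYC replicate 5, 22.1% of SHH replicate 1 and 69.2% of SHH replicate 2. In the small libraries it was in 6 of 6 gated cells of MYC replicate 1 and 7 of 9 of MYC replicate 4. It was in 1 of 1 of MYC replicate 2 and 3 of 11 of MYC replicate 3. Outside SHH replicate 1 and MYC replicate 3, most gated cells thus held this macrophage gene, which goes against the label homeostatic microglia. The cells are therefore called gated cells throughout.

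The gated cells, chosen at their full depth, were also compared at equal depth. The choice itself was therefore not at equal depth. With the gate applied after thinning each cell to 1500 UMIs, 238 cells of MYC replicate 5 passed in place of 983. In SHH replicates 1 and 2 it was 778 and 97 in place of 1281 and 201. The shares below are of the cells gated before thinning. After thinning each cell to 1500 UMIs, Siglech was in 45.2% of the gated cells of SHH replicate 1 (n = 1154 cells), 29.4% of SHH replicate 2 (n = 187) and 2.14% of MYC replicate 5 (n = 983), with 127 and 14 shallower cells left out in the SHH libraries. P2ry12 was in 33.1%, 33.7% and 8.75%, and Ms4a7 in 17.5%, 54.5% and 72.0%. Tmem119, by contrast, was in 56.5%, 62.6% and 51.8%.

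The smaller libraries differed from each other, also within 1 animal, where each site is 1 library and the 2 cannot be told apart. Of kept cells, 11 of 183 (6.01%) passed in the lateral cerebellum and 1 of 445 (0.225%) in the trigeminal nerve of the animal of MYC replicates 2 and 3. In the lateral cerebellum (MYC replicate 3), 9 of 11 gated cells held P2ry12, 10 held Tmem119, 8 held Siglech and 3 held Ms4a7. In the trigeminal nerve tumour of MYC replicate 4, 8 of 9 passed on Tmem119 and Olfml3 alone. All 6 in MYC replicate 1 held Tmem119 and Ms4a7, 5 held P2ry12, and none held Siglech. Cells with 4 or 5 gate genes, the most complete profile, numbered 363 (28.3%) in SHH replicate 1, 24 (11.9%) in SHH replicate 2, 11 (1.12%) in MYC replicate 5 and 3 (27.3%) in MYC replicate 3.

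**Figure D2:**
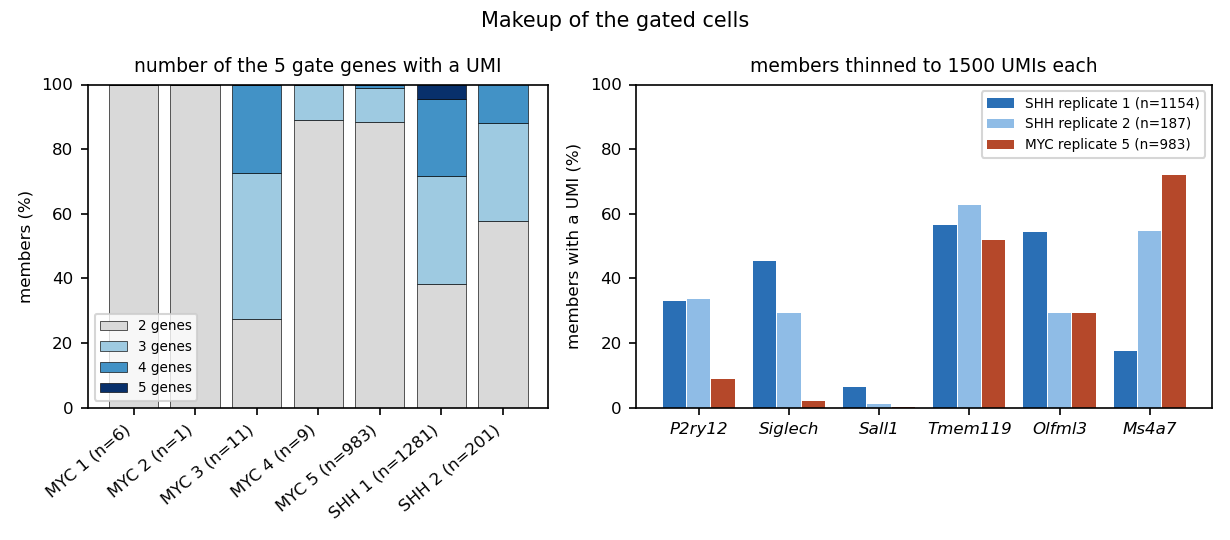
Left, percent of gated cells with 2, 3, 4 or 5 of the gate genes in each library. Right, percent of gated cells, chosen at full depth, with a UMI of each gate gene and of Ms4a7 after thinning to 1500 UMIs. Siglech falls from 45.2% in SHH replicate 1 to 2.14% in MYC replicate 5 while Ms4a7 is highest in MYC replicate 5 (72.0%).

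Transcripts in cells that should lack them, a sign of free RNA or mixed droplets, varied with the library, and their part in these shares was not tested. Among T cells (2 or more Cd3 UMIs), which should make no C1q, 68.8% held a C1q UMI in MYC replicate 5, 55.0% in SHH replicate 1 and 14.2% in SHH replicate 2, at median depths of 5752, 1309 and 1589 UMIs. Of the same T cells, 6.39%, 1.94% and 1.23% also met the gate's C1q and 2-gene conditions, beside the 6.44%, 34.3% and 11.8% of all kept cells that passed the gate. In MYC replicate 5 T cells thus met these conditions about as often as kept cells passed the gate. After thinning, Tmem119 was in 11.3% and Ms4a7 in 24.8% of the T cells of MYC replicate 5, and Siglech in 0.333%. Fewer than 5 C1q UMIs were held by 112 gated cells (11.4%) of MYC replicate 5, by 0 of SHH replicate 1 and by 1 of SHH replicate 2. The highest Scrublet doublet scores, taken at 0.8% per 1000 cells and so more often in large libraries, marked 22.6%, 3.20% and 1.49% of the gated cells, and without them the mean difference in share of kept cells was 20.6 percentage points, close to the 20.4 above. With 10 or more C1q UMIs required, the difference was also 20.6 percentage points.

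Markers outside the gate were read next. Cx3cr1, the fractalkine receptor, ranged from 333 CPM in MYC replicate 1 to 1057 in SHH replicate 1, with 869 in MYC replicate 4, 708 in SHH replicate 2, 466 in MYC replicate 3 and 419.9 in MYC replicate 5. T cells of the 3 large libraries held 92.2 CPM of it in MYC replicate 5 and 71.5 and 18.2 in the SHH replicates. Gpr34, a lysophosphatidylserine receptor, was at 379 CPM in SHH replicate 2, 333 in MYC replicate 3, 191 in SHH replicate 1 and 18.4 in MYC replicate 5, and no UMI was seen in MYC replicates 1 and 4, where a count of 0 allows up to 71.3 and 118 CPM. Slc2a5, the fructose transporter, was at 88.7 CPM in MYC replicate 3, 34.8 in SHH replicate 1, 19.3 in SHH replicate 2 and 0.434 in MYC replicate 5. Gpr34 and Slc2a5 thus stood higher in both SHH libraries and MYC replicate 3 than in MYC replicate 5, while Cx3cr1 was nearly as low in MYC replicate 3 as in MYC replicate 5.

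Sparc, a matricellular protein made by microglia of the grey matter, was at 2539 CPM in SHH replicate 1, 1574 in MYC replicate 3, 916 in MYC replicate 5, 534 in SHH replicate 2 and 158 in MYC replicate 4. In MYC replicate 5 it was also at 883 CPM in T cells, against 191 and 75.9 in the T cells of the SHH replicates, so in that library its level in gated cells was close to that in T cells. Summed over the 30 microglia identity genes outside the gate, the gated cells held 49013 CPM in SHH replicate 1, 40155 in SHH replicate 2, 38526 in MYC replicate 3, 29149 in MYC replicate 4, 20484 in MYC replicate 1 and 15269 in MYC replicate 5. T cells held 4654 and 2826 CPM in the SHH replicates and 6209 in MYC replicate 5.

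Of the gated cells of MYC replicate 5, SHH replicate 1 and SHH replicate 2, 58.9%, 60.5% and 55.2% held a marker of another cell type. Without such cells the 4-fold comparison of MYC replicate 5 with the SHH animals, given below, counted 230 genes in place of 410. All gated cells of MYC replicates 1, 2 and 3 held such a marker, as did 5 of 9 in MYC replicate 4. An edgeR fit without such cells thus kept MYC replicate 5 as the only MYC animal, and its count is not given. The 7 T cell markers summed reached 15.6, 6.35 and 5.93 CPM in the same order, and 0, 1 and 6 of them were at 0 UMIs. Plasmacytoid dendritic cell markers summed to 2825, 1287 and 1405 CPM, against 2726, 412 and 522 in T cells, and dendritic cell markers to 679, 129.6 and 41.5 CPM, against 1082, 195 and 167 in T cells. Border-associated macrophage genes summed to 1498, 387 and 1141 CPM, most of it Ms4a7 (1321, 234 and 829.9), and Lyve1 was not seen in any of the 3. Genes of the MYC tumour cells summed to 1197 CPM in MYC replicate 5 and 962 in its T cells, against 0.941 and 4.45 in the SHH gated cells. The neural progenitor gene Fabp7 was at 127 and 154 CPM in the SHH gated cells and at 247 and 583 in the T cells of the same libraries.

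**Figure D3:**
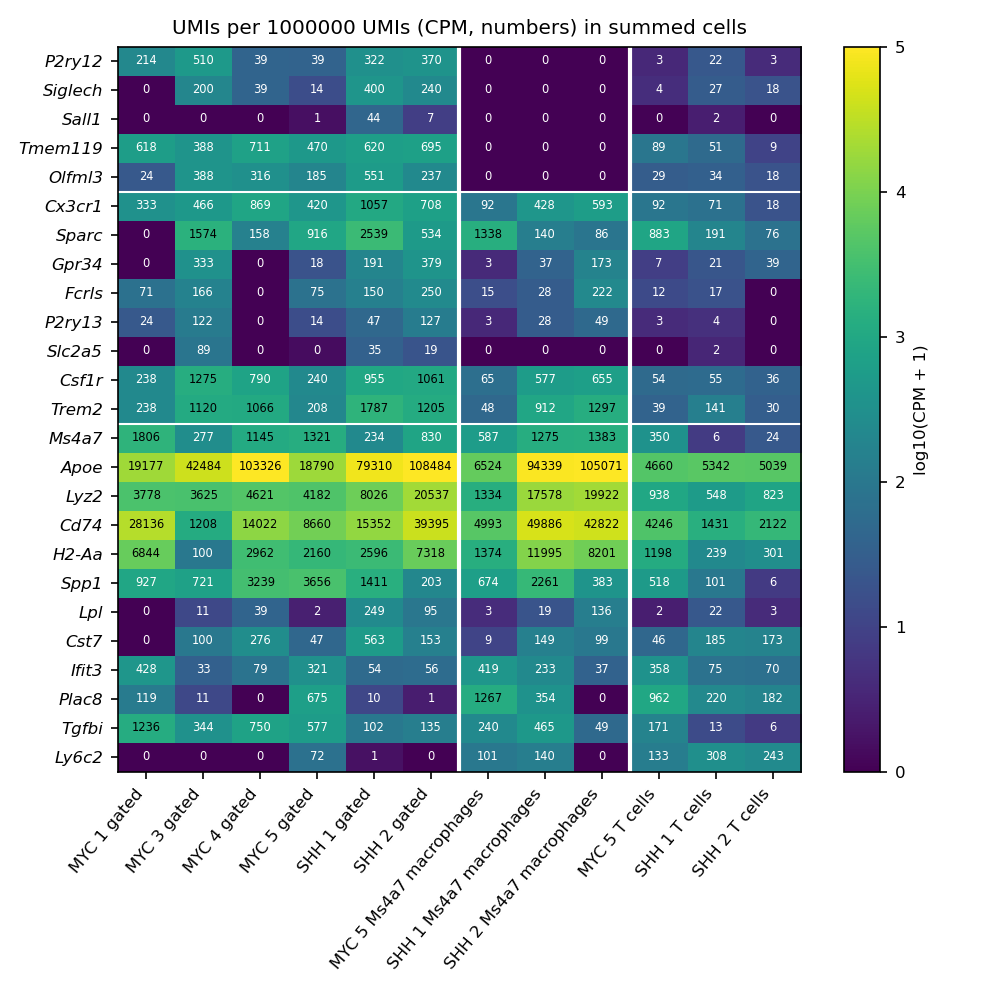
CPM (printed) and log10(CPM + 1) (colour) of gate genes (top), microglia genes outside the gate (middle) and macrophage, lipid, interferon and monocyte genes (bottom) in gated cells, Ms4a7 macrophages and T cells, each summed per library. Gpr34 is at 191 to 379 in the gated cells of MYC 3, SHH 1 and SHH 2 and at 18.4 in MYC 5, where Ms4a7 is at 1321.

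The levels changed in steps with the number of gate genes a C1q cell held, a description since the gate genes sort the cells. In SHH replicate 1, Sparc stood at 362 CPM in cells with 0 gate genes (n = 673 cells) and at 997, 1488, 2400, 3714 and 4082 in cells with 1 to 5. Ms4a7 was highest at the gate's edge, going from 82.7 and 316 CPM with 0 and 1 gate genes to 410 with 2, 230.0 with 3, 64.7 with 4 and 8.11 with 5. Cd74, the invariant chain of class II presentation, stood at 18452, 34766 and 27857 CPM with 0, 1 and 2 gate genes and at 2621 with 5. Lyz2, lysozyme, stood at 2612, 7522 and 12012 CPM with 0, 1 and 2 and at 1907 with 5. Just outside and just inside the gate, at 1 and 2 genes, Cx3cr1 was at 614 and 824 CPM and the median C1q sum at 40 and 68 UMIs. Cells with more gate genes were also deeper, from a median of 2856 UMIs with 2 genes to 4046 with 5.

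Cells with all 5 genes in SHH replicate 1 (n = 59) thus carried Sparc and Cx3cr1 (1302 CPM) with little Ms4a7, and those with 2 carried macrophage genes as well. In SHH replicate 2 Ms4a7 was at 937 CPM with 2 genes and 711 with 4, and Cd74 at 46735 and 27934. In MYC replicate 5 Cx3cr1 went from 397 CPM with 2 genes to 572 with 3 and 876 with 4 (n = 11), and Ms4a7 from 1327 to 1328 and 798. Spp1, the secreted phosphoprotein osteopontin, went from 3046 to 7307 and 18608 CPM over the same steps, whereas in SHH replicate 1 it went from 1838 with 2 genes to 596 with 5.

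**Figure D4:**
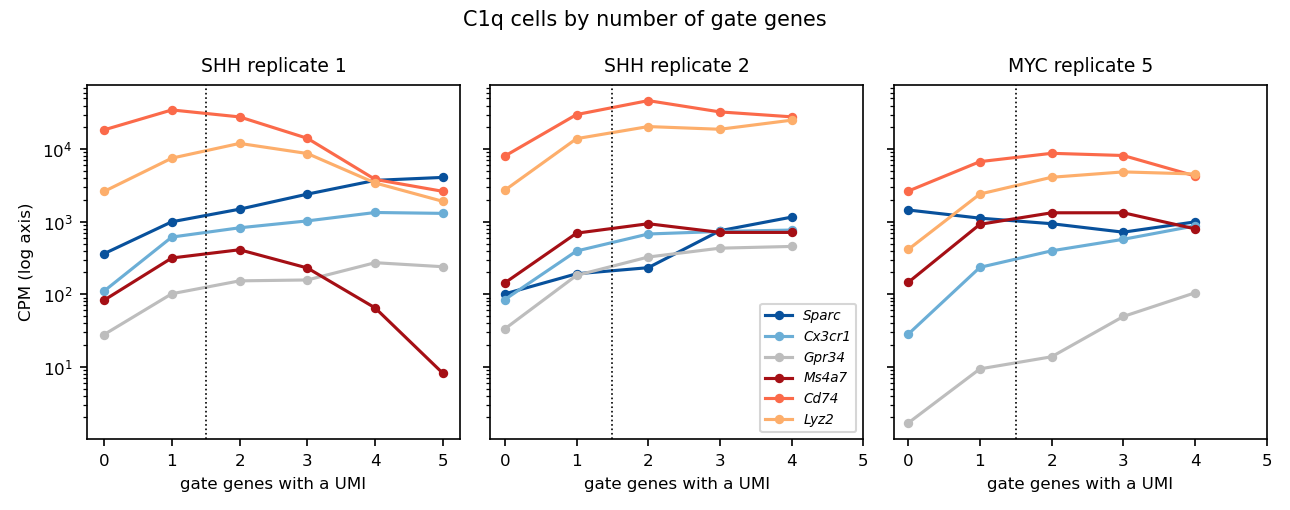
CPM on a log axis of 6 genes against the number of gate genes with a UMI, in C1q cells of the 3 large libraries, with the gate threshold as a dotted line. In SHH replicate 1 Ms4a7 drops from 410 CPM at 2 genes to 8.11 at 5 while Sparc climbs to 4082, and in MYC replicate 5 Ms4a7 stays at 798 to 1328 from 2 genes on.

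The gated cells of MYC replicate 5 were then set against those of both SHH animals. Only 1 MYC animal held 20 or more gated cells and so gave no spread of its own, and a gene was counted when it stood 4-fold or more above the higher, or below the lower, SHH animal. Of 6874 genes compared, 410 (5.96%) met this, 287 higher (4.18%) and 123 lower (1.79%) in MYC replicate 5. Under TMM scaling the split was 243 higher and 163 lower. Of the 287 higher genes, 242 stood below their level in cells without C1q of the same library, and of the 123 lower genes 34 stood below it in the SHH cells, so 242 of the 287 were higher in other cells of the library than in the gated cells.

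Of the microglia identity genes outside the gate, 27 were compared, 0 were counted higher and 8 lower, with a median log2 difference of -1.88 beside 0.22 over all genes compared. They stood below both SHH animals in 24 of 27, beside 29.2% of all genes. The 8 included Gpr34 (18.4 CPM against 191 and 379, 10.4-fold lower than the nearer SHH animal), Trem2, the lipid-sensing receptor (208 against 1787 and 1205), and Cd81 (881 against 5464 and 3702). With TMM scaling 10 were lower and 0 higher.

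The lipid and damage genes were 0 higher and 5 lower of 22, with a median of -1.35. Lpl, lipoprotein lipase, was at 1.74 CPM in MYC replicate 5 and at 249 and 94.8 in the SHH animals, 54.6-fold lower than the nearer one (interval 29.2 to 111). Ctsd, the lysosomal protease cathepsin D, was at 629.7 CPM against 8553 and 7327, 11.6-fold lower. Apoe, the main lipid carrier of glia, was at 18790 CPM against 79310 and 108484. Spp1 did not follow: it stood at 3656 CPM in MYC replicate 5, 1411 in SHH replicate 1 and 203 in SHH replicate 2.

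Other genes lower in MYC replicate 5 by the naming rule were Ptgs1, the cyclooxygenase COX-1 (12.7 CPM against 291 and 308), Il1a, a proinflammatory cytokine (2.61 against 58.6 and 135), Ctse (2.46 against 49.6 and 74.1), Rasgrp3 (4.63 against 87.3 and 86.0), Bri3 (19.3 against 222 and 277) and Rhob (40.2 against 513 and 459). Retnla had 0 UMIs in MYC replicate 5, which allows up to 0.434 CPM, and was at 11.3 and 209 CPM in the SHH animals. All of these levels are CPM and not corrected for transcript length.

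Among the higher genes that the naming rule allowed were Ccl7, a monocyte chemokine, at 551 CPM against 54.6 and 26.7 (10.1-fold above the higher SHH animal, interval 8.83 to 11.6), and Anxa1, a regulator of leukocyte adhesion, at 160 against 3.29 and 2.96 (35.9-fold above a floor of 3 counts in SHH replicate 2). Cfp, properdin of the complement system, was at 178 CPM against 9.64 and 13.3, and Saa3, an acute phase protein, at 141 against 15.5 and 0. Napsa, Atp5k, Oasl1, Sdc4 and Zmynd15 were 6.57- to 10.5-fold higher. Ccl7 was at 3160 CPM in the 6 gated cells of MYC replicate 1 and 1382 in the 9 of MYC replicate 4, and it was not seen in MYC replicate 3.

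Interferon response genes were 10 higher and 0 lower of 20, with a median of 2.17, and monocyte-derived genes 9 higher and 0 lower of 14, with a median of 2.43. Under TMM scaling 8 and 7 were higher. Ifitm3, a viral entry restriction factor, was at 4294 CPM in MYC replicate 5 against 674 and 443, and S100a6, a calcium-binding protein, at 3854 against 18.3 and 5.93. Interferon genes were about as high in other cells of the library. They summed to 17649 CPM in the gated cells, 17841 in T cells and 19961 in cells without C1q of MYC replicate 5, and to 2915 and 2709 in gated cells and T cells of SHH replicate 1. The monocyte-derived genes summed to 11412 CPM in the gated cells of MYC replicate 5 and 9469.6 in its T cells, and members differed: S100a6 was at 5282 CPM in those T cells, whereas at equal depth Tgfbi was in 53.9% of gated cells and 21.0% of T cells, and Ms4a4c in 53.7% and 26.7%.

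A test with 2 animals on each side needed a minimum of 10 gated cells per animal, which added the 12 cells of MYC replicates 2 and 3. In it, edgeR's quasi-likelihood test called 298 of 9421 genes (3.16%) with a Benjamini-Hochberg threshold of 0.05. Of these, 203 (2.15%) stood higher in MYC and 95 (1.01%) lower. Of 29 microglia identity genes tested, 0 were called in either direction, with a median log2 fold of -1.33 beside -0.05 over all genes tested. On simulated data this fit recovered 31.3% of 4-fold changes, so 0 calls do not show equal levels.

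Genes called in this test included Lpl, lower in MYC (10.9 and 1.74 CPM against 249 and 94.8, log2 fold -6.62 ± 0.90 SE, edgeR adjusted p = 0.00125), and Cst7, cystatin F (97.7 and 46.8 against 563 and 153, log2 fold -2.90 ± 0.70 SE, edgeR adjusted p = 0.0398). Klf2, an anti-inflammatory transcription factor, was at 152 and 46.6 CPM against 481 and 282 (log2 fold -2.60 ± 0.64 SE, edgeR adjusted p = 0.0421). Higher in MYC were S100a6 (4548 and 3854 CPM against 18.3 and 5.93, log2 fold 7.88 ± 0.80 SE, edgeR adjusted p = 0.000221) and Ifit1, an interferon-induced RNA sensor (684 and 322 against 18.3 and 17.8, log2 fold 4.31 ± 0.59 SE, edgeR adjusted p = 0.00125). In the animal of replicates 2 and 3, all 63 UMIs of Ifit1 came from 1 cell, and Lpl had 1 UMI. All 4 tested genes of the MYC tumour cells were also called higher in the gated cells of MYC. Leaving out any animal left 1 animal on a side, assumed to vary like those of the other side, so the counts of those fits are not given.

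The last comparison set the gated cells against Ms4a7 macrophages of the same animal, which are C1q cells with Ms4a7 and no UMI of the 5 gate genes. MYC replicate 5 gave 1162 of these, SHH replicate 1 gave 49 and SHH replicate 2 gave 37. With the animal as a block, edgeR called 400 of 10426 genes (3.84%), 292 higher (2.80%) and 108 lower (1.04%) in the gated cells. Of 29 microglia identity genes, 22 were higher and 0 lower, with a median log2 fold of 1.41 beside 0.03 over all genes. The gate itself sorts the 2 classes on co-expressed genes.

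The comparison cells of MYC replicate 5 were unlike those of the SHH animals. Their Cx3cr1 level was 91.7 CPM, near the 92.2 of T cells, against 428 and 593 in the macrophages of SHH replicates 1 and 2, and their C1qa level was 1223 CPM against 5928 and 5953. Where both classes held 10 or more C1q UMIs, leaving 507 macrophages in MYC replicate 5, edgeR called 99 of 9432 genes, 58 higher and 41 lower, and 12 of 29 identity genes were higher and 0 lower. Without MYC replicate 5 it called 10 of 4003 genes, 3 higher and 7 lower, and 2 of 25 identity genes were higher. Without SHH replicate 1 it called 609 of 10837 genes (431 higher) and without SHH replicate 2 it called 205 of 11508 (146 higher), with 17 of 26 and 15 of 27 identity genes higher.

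Sparc was at 2539 against 139.6 CPM in SHH replicate 1 and 534 against 86.5 in SHH replicate 2, but lower in the gated cells of MYC replicate 5 (916 against 1338). It was called higher in the 3-animal fit (log2 fold 1.91 ± 0.32 SE, edgeR adjusted p = 2.55e-06), with 10 or more C1q UMIs (log2 fold 1.70) and without MYC replicate 5 (log2 fold 3.66). Selplg, the P-selectin ligand, was higher in all 3 animals (166 against 56.9, 626 against 223 and 495 against 222 CPM, log2 fold 1.56 ± 0.26 SE, edgeR adjusted p = 2.28e-06), and it stayed called without MYC replicate 5 (edgeR adjusted p = 0.0371). Cx3cr1 (log2 fold 1.46 ± 0.26 SE, edgeR adjusted p = 1.01e-05) and Csf1r (1.29 ± 0.26 SE) were higher in the 3-animal fit, and without MYC replicate 5 Cx3cr1 had an edgeR adjusted p of 0.252.

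By the naming rule the highest folds were Ltc4s, leukotriene C4 synthase (36.9, 225 and 116 CPM in the gated cells of MYC replicate 5, SHH replicate 1 and SHH replicate 2, against 7.09, 18.6 and 37.1 in the macrophages, log2 fold 2.55 ± 0.34 SE, edgeR adjusted p = 2.9e-10), and Htra3, a secreted protease (17.9, 75.0 and 38.5 against 2.79, 18.6 and 12.4, log2 fold 2.54 ± 0.46 SE). Slco2b1, Cd34, Gpr34, Plxna4os1, Gpr84, Cst7, P2ry13 and Pilra followed, with log2 folds of 1.90 to 2.24. The naming rule took only genes with the same sign in all 3 animals. Only 1 to 16 UMIs per gene stood behind the macrophage values of these 10 genes in the SHH animals. Without MYC replicate 5, 3 of the 14 named genes stayed called, namely Ltc4s, Rsad2 and Cxcl10, and 11 of 14 did with 10 or more C1q UMIs.

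Lower in the gated cells were the interferon genes Rsad2 (175, 13.2 and 10.4 CPM against 301, 186 and 98.8, log2 fold -1.96 ± 0.31 SE, edgeR adjusted p = 3.03e-07) and Cxcl10, a T cell chemokine (373, 81.2 and 32.6 against 656, 316 and 86.5, log2 fold -1.20 ± 0.28 SE, edgeR adjusted p = 0.0019), with Cp and Ctr9. In SHH replicates 1 and 2 the macrophage values rested on 20 and 8 UMIs of Rsad2 and 34 and 7 of Cxcl10. For Cp they rested on 6 and 6 UMIs and for Ctr9 on 2 and 2. The DESeq2 Wald test also called Rsad2 and Cxcl10 but not Cp and Ctr9. Over the interferon list 0 were higher and 2 lower of 20, and over the class II list 0 of 9 were called. With 10 or more C1q UMIs, 3 of the 9 class II genes were lower, among them H2-Aa (log2 fold -0.82, edgeR adjusted p = 0.0020). Over all cells of both classes H2-Aa was not called (edgeR adjusted p = 0.846), at 2596 against 11995 CPM in SHH replicate 1, 7318 against 8201 in SHH replicate 2 and, in the opposite direction, 2160.1 against 1374 in MYC replicate 5. Phagocytosis genes were 5 higher and 0 lower of 20, and lipid and damage genes 7 higher and 1 lower of 23.

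**Figure D5:**
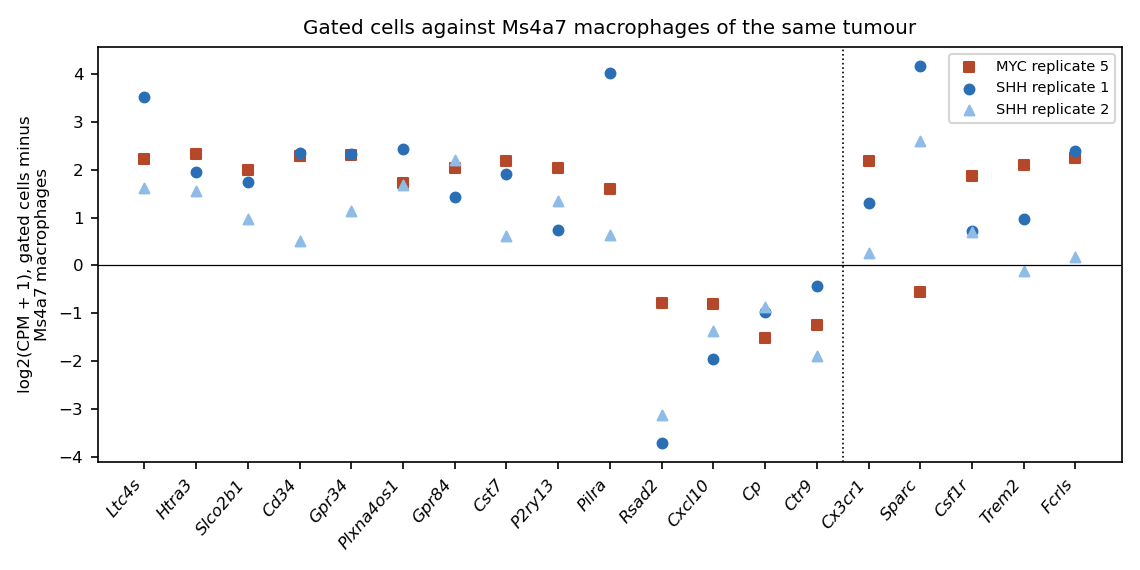
Difference in log2(CPM + 1) between gated cells and Ms4a7 macrophages of the same tumour, per animal, for the 14 genes named by rule (left of the dotted line) and 5 microglia genes (right). The 10 higher and 4 lower genes have the same sign in 3 of 3 animals because the naming rule required it. Sparc is lower in the gated cells of MYC replicate 5 alone.

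The gated cells of the 2 SHH animals differed from each other as well. With 1 library each there was no test; 101 of 6472 genes (1.56%) stood 4-fold or more apart. Cxcl13, a B cell chemokine, was at 1465 CPM in SHH replicate 1 and had 0 UMIs in SHH replicate 2, at least 329-fold higher against a floor of 3 counts, and it was at 416 in MYC replicate 5. Spp1 was at 1411 and 203 CPM and Cxcl2, a neutrophil chemokine, at 118 and 16.3. Higher in SHH replicate 2 were Igf1, insulin-like growth factor 1 (190 against 23.8 CPM), Retnla (209 against 11.3), Pla2g7 (169 against 17.9) and Gdf3 (127 against 12.7). The gate genes Siglech (399.7 and 240.1 CPM) and P2ry12 (322 and 370.5 CPM) were counted in both.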

How the data were processed

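Single cells of 7 tumour libraries (10x, 3′ ends) were deposited by the authors as raw UMI counts per gene and barcode, made with Cell Ranger 2.0.2 on mm10 per the submitters' processing notes. Each file lists genes seen in 3 or more barcodes, and other genes were set to 0. Of 24433 barcodes, 23938 held at least 500 UMIs and 200 genes with 20% or less mitochondrial UMIs, and were kept. Doublets were scored with Scrublet in scanpy 1.11.5 and left out only in an alternative. The members, gene lists and gate were chosen with earlier results of these data known.

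UMIs were summed per animal, with MYC replicates 2 and 3 as 1 animal because their titles share a number. Shares were compared by an exact permutation test. Sums were tested with edgeR 4.0.16 in R 4.3.3 (TMM, filterByExpr, quasi-likelihood F test, Benjamini-Hochberg 0.05), with gate genes left out, and the script was tested on simulated data. The planned test of MYC against SHH needed 2 animals per group with 20 or more gated cells, which MYC did not have, so a 4-fold rule on genes at a mean of 10 CPM or more was used, and the fit with 10 or more cells is given apart. Named genes passed, averaged at least 5 in log2 CPM (32 CPM for the fold rule), kept 1 sign or did not overlap, and stood at or above cells without C1q, up to 10 each way by fold. Pseudogene-type, ribosomal protein, Xist and Y-linked symbols were not taken. Up to 4 members of each list described, and markers, were added. The SHH against SHH genes follow the fold rule, a comparison added later. Positions are GENCODE M21 on GRCm38, and promoters are RefSeq GRCm38.p6. Alternatives were the number of gate genes, the C1q minimum, doublets, depth, each animal left out, scaling, tool (DESeq2 1.42.0), filter, cell minimum, sequencing runs and comparison cells.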

Additional observations from a re-analysis of the deposited data

Results flagged for a closer look

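T cells that met the gate's C1q and 2-gene conditions lie outside the comparisons. They were 6.39% of T cells (115 of 1801) in MYC replicate 5 and 1.94% (15 of 774) in SHH replicate 1, both above the share that a count of 0 allows. Over all libraries 274 barcodes with a Cd3 UMI met the other conditions, 222 of them in MYC replicate 5.

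For 8 of the 40 genes examined by name (20.0%), the difference in log2(CPM + 1) between gated cells and Ms4a7 macrophages changed sign. It had one sign in MYC replicate 5 and the opposite sign in both SHH animals. The same held for 2400 of all 10426 genes tested, a larger share, so the named genes did not stand out in this. All of the 8 but Sparc had been named for a difference between the gated cells of MYC replicate 5 and those of the SHH animals. The difference between subgroups was not tested. Sparc was at -0.55 in MYC replicate 5 against 4.18 and 2.61 in SHH replicates 1 and 2, and Rhob at -0.37 against 1.26 and 0.69. Ccl7 was at 1.23 against -2.56 and -3.09, Zmynd15 at 0.85 against -2.76 and -0.46, Napsa at 0.78 against -2.39 and -0.95, Anxa1 at 0.22 against -3.15 and -1.75, Bri3 at 0.14 against -0.33 and -0.10, and Oasl1 at 0.0046 against -2.60 and -0.05.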

How the results depend on the processing

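Both shares kept their direction in all 12 alternatives each. The difference in share of kept cells ran from -31.7 to -9.15 percentage points with an animal left out (p = 0.1 to 0.2 in the exact permutation test, at the floor of the smaller designs), and that of C1q cells from -45.4 to -26.6.

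The count of genes 4-fold apart between MYC replicate 5 and both SHH animals, 410, was 262 with 3 or more gate genes, 148 after thinning, 230 without gated cells holding a marker of another cell type, and 648 to 725 with 1 SHH animal left out. The share of higher calls, 70%, was 59.9% with TMM scaling, 58.7% with DESeq2 size factors, 47.3% after thinning and 50.9% without cells holding another type's marker.

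The 298 edgeR calls between subgroups were 7 with 1 or more gate genes, 747 with 3 or more, 179 with DESeq2, 940 without a filter, 834 without cells holding another type's marker, 458 with sequencing runs as a covariate and 1841 with 20 or more cells, and ran from 83 to 1841 with an animal left out (105 without SHH replicate 1).

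The 400 edgeR calls against macrophages were 24 with 1 or more gate genes, a fit that MYC replicate 4 also entered (48 gated cells and 94 macrophages). They were 13 with 3 or more gate genes, 185 and 99 with 3 and 10 or more C1q UMIs, 25 after thinning and 42 with DESeq2. Against all C1q cells without the gate genes they were 876, and with an animal left out 10 to 609. Without the replicate block, which pairs the classes of 1 animal, edgeR called 0 (193 at an unadjusted p under 0.05, and 42 with DESeq2 in the blocked design). The fit with 50 or more cells could not be made. The minimum of 10 C1q UMIs and the fit with 20 or more cells and 1 MYC animal were chosen after seeing the data. The cause of these moves was not tested. Sums of 6 to 12 cells limit what MYC animals other than replicate 5 can show.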
